A study of Ovis aries with 40 samples.

Results

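The genes of this account are those of the smooth muscle contractile programme in the developing sheep lung. They were chosen by name, 9 in all: MYOCD, MYH11, ACTA2, TAGLN, CNN1, DES, LMOD1, ACTG2 and MYLK. Of these, 8 were matched among the 24478 genes counted, and LMOD1 was not analysed here. RNA was sequenced from proximal and distal lung of American Romney sheep on gestation days 65, 80, 100 and 120 and at term, in 2 genotypes, with 2 libraries for each of 20 conditions and 40 in all. WT sheep were bred. CF sheep were CFTR-/- animals, which lack the cystic fibrosis chloride channel, and they were made by somatic cell nuclear transfer from a male fetal fibroblast line in which exon 2 of CFTR had been targeted. Genotype, cloning from that line and sex therefore cannot be told apart, and neither can genotype and sequencing depth before term. The WT lambs at term were born naturally, and the paper does not state how the CF animals at term were delivered. The paper names the time from birth to tissue collection as a factor in the term lung. The part of delivery and of that time in the differences at term was not tested. In each region the 2 WT libraries of day 100 come under a single animal name, so their spread may be technical. Replicate 2 of WT day 65 likewise has the animal name of CF day 100 replicate 2, and the groups of both follow the sample titles.

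Smooth muscle in the lung wraps the conducting airways and the arteries, and in the fetus airway smooth muscle forms around the growing tubes and contracts in rhythm. Myocardin, encoded by MYOCD, binds serum response factor (SRF) and turns on the contractile genes together. Their products are the smooth muscle actins, the smooth muscle myosin heavy chain, proteins that bind actin filaments, the intermediate filament desmin and the kinase that starts contraction. Several of them are also made by myofibroblasts and pericytes, and desmin is made by all muscle cells.

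Before term 7 of the 8 smooth muscle genes were higher in CF than in WT proximal lung and 6 of 8 in distal lung, and at term 3 and 5 of them were lower. Of all genes, 13.8% and 18.6% were higher before term and 3.49% and 7.57% lower at term. The proximal counts were 6 and 2 without 2 CF libraries that held heart transcripts, beside 7.84% and 1.94% of all genes. For MYOCD and MYH11 both CF libraries lay above both WT libraries of the same age and region from day 65 to day 120 and below them at term. In WT lung ACTA2, TAGLN, CNN1, DES and ACTG2 rose from day 65 to term in both regions, where 23.5% (proximal) and 21.8% (distal) of all genes rose. None of the 8 genes passed the test between proximal and distal lung. The tests behind these counts are given with each comparison.

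Before term the depth was 24670355 to 43700012 counted reads in 16 WT libraries against 85773994 to 103139483 in 16 CF libraries, and it was 115937437 to 126749480 (WT) and 117316905 to 119451372 (CF) in the 4 libraries of each genotype at term. CFTR itself, counted over the whole gene so that reads outside exon 2 remain, ranged from 11.02 to 43.8 CPM in WT and 5.0 to 34.9 CPM in CF libraries before term, which overlapped, and from 9.58 to 14.8 and 3.65 to 5.14 CPM at term, which did not. Levels are given as CPM, the reads of a gene scaled to library depth after TMM normalization over the 40 libraries. The labels name epithelial tissue, and the study's methods describe pieces of whole frozen lung. The epithelial genes EPCAM and NKX2-1 were present in all 40 libraries, at 90.3 to 286 and 61.0 to 209 CPM, beside the smooth muscle genes. In bulk RNA, fewer smooth muscle cells and less of these transcripts per cell cannot be told apart. CF proximal day 65 replicate 1 and CF proximal day 80 replicate 2 held transcripts of heart muscle: ACTC1, the cardiac actin, was at 327.7 and 137.8 CPM there and at most at 18.3 CPM in the other 38 libraries, and NPPA, the atrial natriuretic peptide, was at 24.7 and 90.7 CPM against at most 0.0626. The part of these transcripts in the results was not tested beyond leaving both libraries out.

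Per kilobase of gene model, ACTA2 had the highest level of the 8 genes, with a median of 143.5 CPM per kb over the 40 libraries, and MYOCD the lowest with 1.21 CPM per kb. TAGLN followed ACTA2 with 74.9 CPM per kb. DES, MYH11, MYLK and ACTG2 had medians of 32.9, 30.3, 26.3 and 25.6 CPM per kb, and their ranges over the libraries overlapped. CNN1 stood at 10.5 CPM per kb. The range over the libraries, highest over lowest, was 17.8-fold for ACTG2, 15.8-fold for CNN1, 15.2-fold for MYOCD and 13.3-fold for ACTA2, and it was narrowest for MYLK at 3.3-fold.

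**Figure D1:**
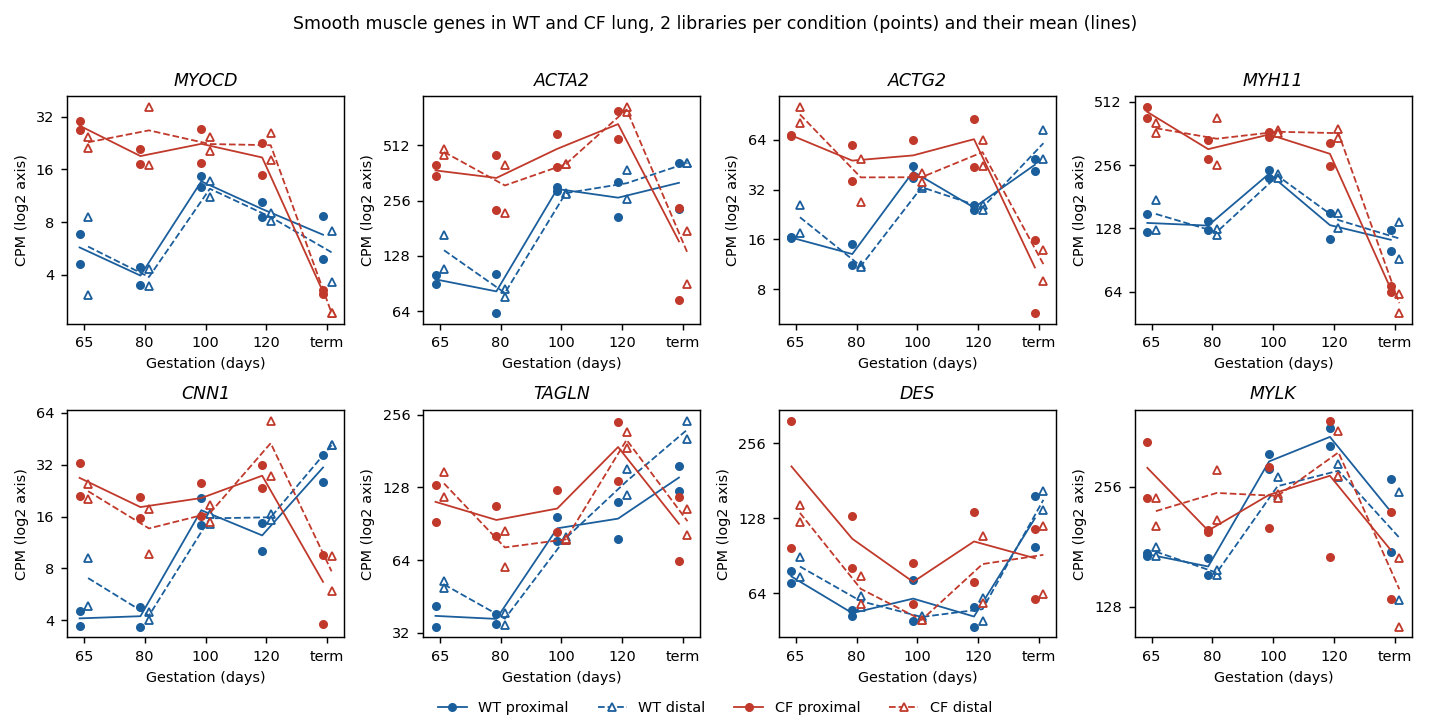
CPM of the 8 smooth muscle genes (log2 axis) against gestation, with 2 libraries per condition as points (filled circles, proximal; open triangles, distal) and their means as lines, WT in blue and CF in red. The CF lines of MYOCD and MYH11 lie above the WT lines until day 120 and below them at term.

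MYOCD, the regulator, lies on chromosome 11 of Oar_v4.0 at 30646505 to 30735045 on the plus strand. In WT proximal lung MYOCD was at 6.84 and 4.62 CPM at day 65, 3.48 and 4.43 at day 80, 14.8 and 12.6 at day 100, 10.5 and 8.51 at day 120, and 8.65 and 4.89 at term. WT distal lung had 8.51 and 3.07 CPM at day 65, 4.31 and 3.45 at day 80, 11.1 and 13.7 at day 100, 9.0 and 8.09 at day 120, and 7.11 and 3.63 at term. The highest WT libraries were those of day 100 in both regions. In CF proximal lung MYOCD was at 26.8 and 30.2 CPM at day 65, 21.0 and 17.1 at day 80, 27.4 and 17.5 at day 100, 22.6 and 14.9 at day 120, and 3.28 and 3.09 at term. CF distal lung had 24.7 and 21.1 CPM at day 65, 36.6 and 17.0 at day 80, 24.4 and 20.3 at day 100, 26.0 and 18.1 at day 120, and 2.41 and 2.42 at term. Every CF library before term exceeded the highest WT library of either region, which was at 14.8 CPM, and the 4 CF libraries at term lay below every WT library of that age.

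MYH11 encodes the smooth muscle myosin heavy chain, the motor protein of contraction (chromosome 24, 14090323 to 14217839, minus strand). MYH11 stood in WT proximal lung at 149 and 123 CPM at day 65, 126 and 138 at day 80, 223 and 243 at day 100, 152 and 114 at day 120, and 126 and 101 at term. WT distal levels were 175 and 126 CPM at day 65, 119 and 127 at day 80, 233 and 223 at day 100, 152 and 129 at day 120, and 138 and 92.0 at term. The WT libraries peaked at day 100 and were back near their day 65 level at day 120. Its level in CF proximal lung was 430.3 and 485 CPM at day 65, 336 and 274 at day 80, 348 and 368 at day 100, 325 and 255 at day 120, and 63.7 and 68.5 at term. CF distal levels were 404 and 363 CPM at day 65, 428 and 256 at day 80, 374 and 364 at day 100, 380.4 and 346 at day 120, and 50.6 and 62.5 at term. CF and WT did not overlap at any time point in either region. MYH11 was also the gene of the 8 whose profile over the 40 libraries lay closest to that of MYOCD (Pearson r = 0.95 on log2 CPM), a description over libraries that share their groups.

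ACTA2, alpha smooth muscle actin, lies on chromosome 22 at 10338736 to 10356768 on the minus strand. The WT proximal libraries had ACTA2 at 101 and 89.6 CPM at day 65, 62.4 and 102 at day 80, 302 and 289.9 at day 100, 323 and 208 at day 120, and 410.3 and 229 at term. The WT distal libraries had it at 166 and 109 CPM at day 65, 76.1 and 84.9 at day 80, 282 and 279.5 at day 100, 374 and 262 at day 120, and 411 and 409 at term. All WT libraries from day 100 on exceeded all WT libraries of days 65 and 80. The CF proximal libraries had it at 398 and 348 CPM at day 65, 451 and 228 at day 80, 390.3 and 588 at day 100, 550.1 and 783 at day 120, and 233 and 74.2 at term. The CF distal libraries had it at 451 and 489 CPM at day 65, 399 and 219.8 at day 80, 404 and 403 at day 100, 771 and 829 at day 120, and 176 and 90.4 at term. CF libraries lay above WT libraries at every age before term, and at term they lay below in distal lung and overlapped in proximal lung, where CF replicate 1 was just above the lower WT library. ACTG2 encodes gamma smooth muscle actin, best known from the gut (chromosome 3, 95503479 to 95527600, plus strand), and whether reads shared by the near-identical actin genes were counted is not given in the sources used here, so the split between them is uncertain. ACTG2 in WT proximal lung was at 16.5 and 16.3 CPM at day 65, 11.2 and 14.9 at day 80, 44.7 and 37.6 at day 100, 25.9 and 24.0 at day 120, and 48.8 and 41.7 at term. ACTG2 in WT distal lung was at 26.0 and 17.6 CPM at day 65, 11.2 and 10.9 at day 80, 32.8 and 33.5 at day 100, 25.9 and 24.1 at day 120, and 48.9 and 73.5 at term. WT libraries of day 80 were the lowest and those of term the highest in distal lung. ACTG2 in CF proximal lung was at 69.1 and 67.4 CPM at day 65, 60.0 and 36.0 at day 80, 38.9 and 64.3 at day 100, 43.7 and 85.8 at day 120, and 15.9 and 5.71 at term. ACTG2 in CF distal lung was at 81.0 and 102 CPM at day 65, 48.9 and 27.1 at day 80, 40.5 and 35.7 at day 100, 44.3 and 63.7 at day 120, and 13.7 and 8.94 at term. All 4 CF libraries at term lay below the 4 WT libraries.

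CNN1, calponin 1, binds actin and tropomyosin and restrains the myosin ATPase (chromosome 5, 13491920 to 13505995, plus strand). Levels of CNN1 in WT proximal lung were 4.53 and 3.68 CPM at day 65, 4.8 and 3.65 at day 80, 14.3 and 20.6 at day 100, 14.7 and 10.2 at day 120, and 36.4 and 25.4 at term. Those in WT distal lung were 9.21 and 4.86 CPM at day 65, 4.49 and 4.03 at day 80, 16.7 and 14.6 at day 100, 16.5 and 15.2 at day 120, and 41.6 and 41.5 at term. Its WT libraries were lowest at days 65 and 80 and highest at term. Levels in CF proximal lung were 32.8 and 21.0 CPM at day 65, 20.7 and 15.6 at day 80, 16 and 25.0 at day 100, 31.9 and 23.4 at day 120, and 9.55 and 3.83 at term. Those in CF distal lung were 24.8 and 20.1 CPM at day 65, 17.7 and 9.65 at day 80, 14.8 and 18.7 at day 100, 57.8 and 27.6 at day 120, and 9.45 and 5.95 at term. CF and WT overlapped at day 100 and at no other age. TAGLN, transgelin, is an actin cross-linking protein and an early marker of smooth muscle (chromosome 15, 27341499 to 27346971, plus strand). TAGLN was present in WT proximal lung at 33.8 and 41.5 CPM at day 65, 34.7 and 38.5 at day 80, 76.7 and 96.8 at day 100, 112 and 78.6 at day 120, and 157 and 124 at term. Its WT distal levels were 52.4 and 49.2 CPM at day 65, 34.4 and 38.9 at day 80, 80.1 and 77.7 at day 100, 153 and 119 at day 120, and 203 and 242 at term. The CF proximal libraries stood at 131 and 91.9 CPM at day 65, 107 and 80.4 at day 80, 84.1 and 125 at day 100, 136 and 239.9 at day 120, and 117 and 63.7 at term. The CF distal libraries stood at 149 and 117 CPM at day 65, 84.7 and 59.9 at day 80, 77.8 and 78.3 at day 100, 216 and 187 at day 120, and 104 and 81.2 at term. As for CNN1, CF and WT overlapped at day 100 alone.

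DES, desmin, is the intermediate filament of smooth, skeletal and heart muscle (chromosome 2, 220321994 to 220328992, plus strand). DES was at 79.0 and 70.6 CPM at day 65, 54.7 and 52.0 at day 80, 49.7 and 72.3 at day 100, 56.5 and 46.9 at day 120, and 158 and 97.9 at term in WT proximal lung. WT distal libraries were at 74.3 and 89.7 CPM at day 65, 56.4 and 62.7 at day 80, 50.8 and 52.1 at day 100, 61.1 and 49.6 at day 120, and 165 and 138 at term. WT libraries were highest at term, a rise that MYOCD and MYH11 did not share. The CF proximal lung gave 316 and 97.7 CPM at day 65, 80.8 and 131 at day 80, 58.0 and 84.3 at day 100, 71.3 and 135 at day 120, and 116 and 61.0 at term. The CF distal lung gave 145 and 124 CPM at day 65, 58.0 and 75.4 at day 80, 50.1 and 50.1 at day 100, 58.7 and 109 at day 120, and 119 and 63.8 at term. The highest value of all, 315.6 CPM, belonged to CF proximal day 65 replicate 1, a library with heart transcripts. MYLK, myosin light chain kinase, phosphorylates the myosin light chain and so starts contraction (chromosome 1, 186094658 to 186327788, minus strand). MYLK ranged from 154 to 359 CPM (median 229, n = 8) in WT proximal, 154 to 292 CPM (median 212, n = 8) in WT distal, 170.2 to 376 CPM (median 221, n = 8) in CF proximal and 205 to 353 CPM (median 243, n = 8) in CF distal lung before term. At term the MYLK libraries were at 269 and 175 CPM (WT proximal), 248 and 133 (WT distal), 222 and 134 (CF proximal) and 169.6 and 114 (CF distal). The genotypes overlapped for MYLK from day 100 on.

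How the genes change with age was first asked in WT lung. A DEG is a gene whose adjusted p was at most 0.001 and whose log2 fold change was 0.58 or more in size, by edgeR's quasi-likelihood test (Benjamini-Hochberg over every gene tested), and "rose" or "fell" is used for an adjusted p of 0.05 or less. From day 65 to term, TAGLN, CNN1 and ACTG2 were DEGs in WT proximal lung, with log2 fold changes of 1.89 ± 0.21 (SE), 2.9 ± 0.31 and 1.45 ± 0.17 (edgeR adjusted p = 1.34e-04, 1.08e-04 and 1.49e-04). In WT distal lung the 3 DEGs were ACTA2, TAGLN and CNN1, with 1.55 ± 0.22, 2.1 ± 0.16 and 2.53 ± 0.28 (edgeR adjusted p = 7.59e-04, 3.33e-05 and 2.08e-04). Of all genes tested, 8.15% (proximal) and 6.43% (distal) were DEGs that rose. At the limit of 0.05, 5 of 8 rose in each region, the 3 DEGs with DES and, in proximal lung, ACTA2 or, in distal lung, ACTG2, against a background of 23.5% and 21.8%. MYOCD, MYH11 and MYLK did not pass, and their log2 fold changes were 0.23, -0.28 and 0.34 in proximal and -0.15, -0.42 and 0.08 in distal lung. Without WT proximal day 65 replicate 1 none of the 8 was a DEG in proximal lung, and without replicate 2 of that age 1 was.

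In the step from day 80 to day 100, 6 of the 8 genes rose in WT proximal lung and 4 of 8 in WT distal lung. In proximal lung MYOCD rose by 1.77 ± 0.34 on the log2 scale, ACTA2 by 1.83 ± 0.32, TAGLN by 1.23 ± 0.21, CNN1 by 2.03 ± 0.31, ACTG2 by 1.64 ± 0.17 and MYLK by 0.86 ± 0.17 (edgeR adjusted p from 0.00292 to 0.0444). Of all genes, 1.27% rose there. In distal lung ACTA2, TAGLN, CNN1 and ACTG2 rose, by 1.8 ± 0.23, 1.1 ± 0.16, 1.87 ± 0.28 and 1.59 ± 0.24 (edgeR adjusted p from 0.0102 to 0.0208), where 0.75% of all genes did. None of the 8 was a DEG in this step in either region, and DES had log2 fold changes of 0.18 and -0.22. The WT day 100 libraries are those that share an animal label.

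Between days 65 and 80 none of the 8 passed in WT lung, where 0.011% (proximal) and 0.0164% (distal) of all genes did. Between days 100 and 120 MYH11 fell in WT proximal lung, with a log2 fold change of -0.79 ± 0.17 (edgeR adjusted p = 0.0464), where 1.29% of genes fell, and TAGLN rose in WT distal lung, by 0.78 ± 0.16 (edgeR adjusted p = 0.0371), where 1.34% rose. Between day 120 and term CNN1, DES and ACTG2 rose in both regions, where 13.5% (proximal) and 13.5% (distal) of genes rose. Their log2 fold changes were 1.31 ± 0.29, 1.3 ± 0.24 and 0.86 ± 0.16 in proximal and 1.37 ± 0.27, 1.44 ± 0.15 and 1.28 ± 0.24 in distal lung, and TAGLN rose in distal lung with 0.7 ± 0.15 (edgeR adjusted p = 0.0128). DES in distal lung was the DEG of this step (edgeR adjusted p = 7.34e-04), against a background of 0.624%. MYLK fell in proximal lung, with -0.63 ± 0.17 (edgeR adjusted p = 0.0282), where 11.1% of genes fell. The DEG count of these steps went from 1 to 0 without either WT distal library of day 80, 100 or 120 or without WT distal term replicate 2, and to 3 without WT distal term replicate 1. Over the 16 steps between consecutive time points in both genotypes the 8 genes gave 128 tests, of which 1 was a DEG, 30 passed 0.05 and 53 had an unadjusted p under 0.05. Over all genes these shares of the tests were 0.227%, 5.1% and 15.4%.

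In CF lung none of the 8 passed between days 65 and 80 or between days 80 and 100 in either region, and neither did any other gene. Between days 100 and 120 none passed in CF proximal lung, where 0.0203% of all genes did, and in CF distal lung TAGLN rose by 1.4 ± 0.24 (edgeR adjusted p = 0.0389), where 0.528% of all genes rose. Between day 120 and term, 7 of 8 genes fell in CF distal lung, where 11.5% of all genes fell. The log2 fold changes were -3.21 ± 0.4 for MYOCD, -2.69 ± 0.28 for MYH11, -2.59 ± 0.38 for ACTA2, -2.49 ± 0.45 for CNN1, -2.25 ± 0.35 for ACTG2, -1.15 ± 0.27 for MYLK and -1.13 ± 0.24 for TAGLN (edgeR adjusted p from 0.00106 to 0.019). DES was the exception, at 0.13 ± 0.33. Markers of other cells moved in the same step. Of immune genes MARCO, PTPRC, CD3E, LYZ and CSF1R rose in CF distal lung. Of pericyte genes HIGD1B and NDUFA4L2 rose and NOTCH3 and PDGFRB fell (edgeR adjusted p from 0.00117 to 0.0351 for these markers). In CF proximal lung MYOCD fell by 2.59 ± 0.38 and MYH11 by 2.17 ± 0.27 on the log2 scale (edgeR adjusted p = 0.0419 and 0.0262), where 0.279% of genes fell. The other 6 genes had values from -2.61 for ACTG2 to -0.26 for DES and did not pass. With both libraries that held heart transcripts left out, which leaves 1 CF proximal library each at days 65 and 80 that is taken to vary like the others, none of the 8 passed in this step, with -2.59 for MYOCD and -2.17 for MYH11 (edgeR adjusted p = 0.329 and 0.308), and neither did any other gene.

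Against day 65, MYOCD, MYH11 and ACTG2 were DEGs that fell at term in CF distal lung, with -3.22 ± 0.4, -2.73 ± 0.28 and -2.98 ± 0.36 (edgeR adjusted p = 5.44e-04, 2.02e-04 and 4.59e-04), where 2.28% of genes were such DEGs. ACTA2 and CNN1 also fell there, with -1.79 ± 0.37 and -1.51 ± 0.44 (edgeR adjusted p = 0.00631 and 0.0289), so that 5 of 8 passed 0.05 where 15% of genes did. In CF proximal lung none was a DEG, as were 0.0406% of all genes, and MYOCD, MYH11, CNN1 and ACTG2 fell, with -3.15 ± 0.39, -2.78 ± 0.28, -1.99 ± 0.5 and -2.64 ± 0.57 (edgeR adjusted p from 0.00128 to 0.039), where 5.83% of all genes did. Of these 4, MYH11 alone passed when both libraries with heart transcripts were left out, at -2.88 (edgeR adjusted p = 0.0471), where 0.419% of all genes fell. MYOCD, CNN1 and ACTG2 then had -3.24, -1.65 and -2.64 (edgeR adjusted p = 0.0661, 0.337 and 0.17). The count of DEGs in CF distal lung went from 3 to 0 without either library of day 65 or of term and to 1 without either library of day 100, and that in CF proximal lung went from 0 to 2 without either library of day 120.

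**Figure D2:**
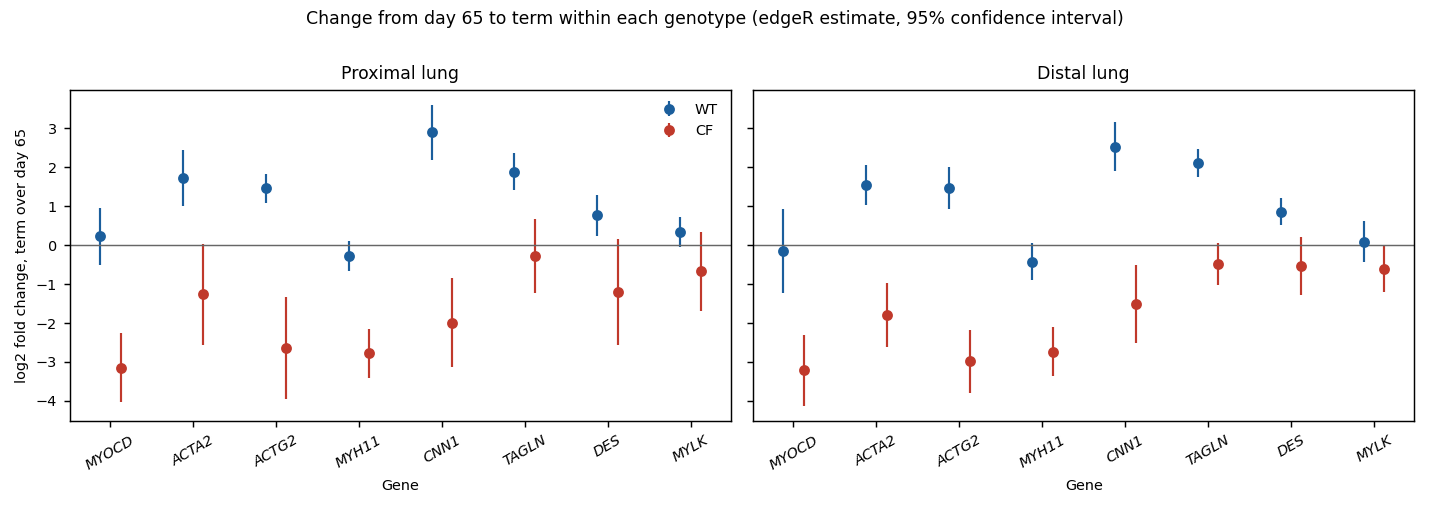
Log2 fold change from day 65 to term for each smooth muscle gene, WT in blue and CF in red, in proximal (left) and distal (right) lung, as edgeR estimates with 95% confidence intervals from 2 libraries per condition. WT values are highest for CNN1, and CF values are lowest for MYOCD, with CF below WT in all 8 genes of both regions.

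Whether CF and WT differ before birth was tested on the mean of days 65 to 120. CF proximal lung held 5 of 8 genes as DEGs higher than WT, where 2.13% of all genes were such DEGs. MYOCD ranged from 14.9 to 30.2 CPM (median 21.8, n = 8) in CF and from 3.48 to 14.8 CPM (median 7.67, n = 8) in WT proximal lung, with a log2 fold change of 1.57 ± 0.18 (edgeR adjusted p = 9.43e-05). MYH11 ranged from 255 to 485 CPM (median 342, n = 8) in CF and from 114 to 243 CPM (median 144, n = 8) in WT, with 1.17 ± 0.11 (edgeR adjusted p = 2.36e-05). The groups did not overlap for either gene. CNN1, ACTG2 and ACTA2 were the other DEGs, with 1.55 ± 0.22, 1.41 ± 0.22 and 1.52 ± 0.25 (edgeR adjusted p = 3.92e-04, 7.44e-04 and 0.001, the last at the limit). TAGLN at 1.05 ± 0.17 and DES at 0.92 ± 0.25 passed 0.05 (edgeR adjusted p = 0.00115 and 0.0174), so that 7 of 8 did against a background of 13.8%, and MYLK did not, at 0.1 ± 0.17 with a 95% confidence interval of -0.27 to 0.47.

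CF distal lung held 6 of 8 genes as DEGs higher than WT before term, where 5.21% of all genes were. MYOCD ranged from 17.0 to 36.6 CPM (median 22.8, n = 8) in CF and from 3.07 to 13.7 CPM (median 8.3, n = 8) in WT distal lung, and its log2 fold change was 1.75 ± 0.22 (edgeR adjusted p = 4.34e-05). ACTA2 ranged from 219.8 to 829 CPM (median 428, n = 8) in CF and from 76.1 to 374 CPM (median 214, n = 8) in WT, and differed by 1.39 ± 0.16 (edgeR adjusted p = 1.62e-05). The ranges of ACTA2 overlapped over the 4 ages together and at no single age. MYH11, ACTG2, CNN1 and TAGLN differed by 1.23 ± 0.12, 1.29 ± 0.15, 1.23 ± 0.19 and 0.73 ± 0.1 (edgeR adjusted p from 5.68e-06 to 2.34e-04). These 6 were also the genes past 0.05, where 18.6% of all genes were, and DES at 0.36 ± 0.14 and MYLK at 0.27 ± 0.13 did not pass (edgeR adjusted p = 0.0689 and 0.126).

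The proximal count of 5 went to 1, MYH11, without both libraries that held heart transcripts. It was 2 without any 1 of 10 libraries (both WT proximal libraries of days 65, 80 and 120, WT day 100 replicate 1, and CF proximal day 65 replicate 1, day 80 replicate 1 and day 100 replicate 2) and 3 without WT proximal day 100 replicate 2, either WT proximal term library, CF proximal day 65 replicate 2 or CF proximal day 80 replicate 2. The log2 fold changes of MYOCD, ACTA2, CNN1 and ACTG2 without both libraries with heart transcripts were 1.64, 1.6, 1.52 and 1.5 (edgeR adjusted p = 0.00116, 0.00358, 0.00285 and 0.00317). At the limit of 0.05, 6 of 8 passed without both, where 7.84% of all genes were higher. The distal count stayed at 5 or 6 with any library left out.

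Other markers moved with genotype before term. EPCAM, an adhesion protein of epithelial cells, was at 93.9 to 162 CPM in the 8 CF proximal libraries and at 169.7 to 226 CPM in the 8 WT ones, and in distal lung at 90.3 to 155 and 180.4 to 221 CPM, so that every CF library lay below every WT library. The log2 fold changes of EPCAM were -0.71 ± 0.11 and -0.67 ± 0.08 (edgeR adjusted p = 8.12e-04 and 2.04e-05). Of the 14 epithelial genes it was the one lower in CF in proximal lung and 1 of 3 in distal lung, where 6.77% and 13.6% of all genes were lower, and none was higher. The sum of the 14 was 787 to 19890 and 911 to 7161 CPM in CF against 1040 to 5192 and 1192 to 3937 CPM in WT and overlapped. The summed striated muscle genes were higher in every CF distal library before term, at 55.0 to 95.5 CPM against 25.0 to 45.9 CPM in WT, and overlapped in proximal lung. The list was mixed, with 4 genes higher and 2 lower of 19 tested in distal lung. MYBPC3 was at 7.6 to 34.5 CPM in CF distal and 1.25 to 3.91 CPM in WT distal lung, TNNI3 was at most at 0.313 CPM in CF and 6.97 CPM in WT, and MYH7 and TNNT2 overlapped. The sums of fibroblast and mesothelial genes overlapped between the genotypes in both regions. In proximal lung 2 of 12 fibroblast genes were higher in CF and 1 lower, where 13.8% and 6.77% of all genes were. Of 6 mesothelial genes MSLN alone passed there, higher at 1.77 ± 0.5 (edgeR adjusted p = 0.0223), and it was at 1.695 without both libraries with heart transcripts. The sums of pericyte, immune, endothelial and cartilage genes overlapped between the genotypes in both regions, although single genes of each list passed 0.05. In proximal lung 3 of 8 pericyte, 3 of 10 endothelial, 1 of 8 immune and 5 of 10 cartilage genes were higher in CF, where 13.8% of all genes were, and in distal lung 2, 4, 2 and 5 were, where 18.6% were. Lower in these lists were 1 immune gene in each region and 1 cartilage gene in distal lung. The proximal counts of higher genes were 1, 2, 1 and 2 when both libraries with heart transcripts were left out, beside 7.84% of all genes, and no immune gene was then lower. CSPG4 of the pericyte list was at 0.92 ± 0.17 and 0.83 ± 0.1, and EGFL7 of the endothelial list at 1.65 ± 0.22 and 1.32 ± 0.12 (edgeR adjusted p from 3.41e-06 to 0.00247). CD68, a macrophage protein, was at 0.93 ± 0.2 and 0.95 ± 0.15 (edgeR adjusted p = 0.00506 and 2.47e-04). The other higher immune gene in distal lung was LYZ, at 1.3 ± 0.33 (edgeR adjusted p = 0.00804). The lower immune gene was PTPRC, at -0.79 ± 0.22 and -0.73 ± 0.22 (edgeR adjusted p = 0.0218 and 0.02). CSF1R of the same list was at -0.12 ± 0.15 and -0.29 ± 0.12 and did not pass (edgeR adjusted p = 0.627 and 0.0847). The cartilage collagens COL11A2 and COL9A3 were at 1.96 ± 0.27 and 1.98 ± 0.28 in proximal and 1.46 ± 0.14 and 1.85 ± 0.25 in distal lung (edgeR adjusted p from 5.74e-06 to 4.52e-04), and in proximal lung at 1.84 and 1.8 without both libraries with heart transcripts (edgeR adjusted p = 0.00403 and 0.00263). These single genes were named after their values were seen. The part of these cell types in the smooth muscle result was not tested.

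The same contrast was then made at each age. At day 65 both CF libraries lay above both WT libraries for 8 of 8 genes in each region, where 33.7% (proximal) and 27.9% (distal) of all genes did. At day 80 this held for 8 genes in proximal and 7 in distal lung (background 26.2% and 34.1%), at day 100 for 3 and 4 (background 24.3% and 36.7%), and at day 120 for 7 and 6 (background 19.4% and 23.5%). In distal lung MYOCD, MYH11, ACTA2, TAGLN, CNN1 and ACTG2 passed 0.05 at both day 65 and day 80, 6 of 8 where 4.36% and 4.11% of genes did, and the largest difference was that of MYOCD at day 80, 2.79 ± 0.46 (edgeR adjusted p = 0.00364). In proximal lung MYOCD, MYH11 and CNN1 passed at day 65, with 2.31 ± 0.36, 1.75 ± 0.22 and 2.71 ± 0.45 (edgeR adjusted p = 0.0215, 0.0121 and 0.0292), where 0.113% of genes did. MYOCD passed there at day 80 (background 0.0737%) and MYH11 at day 120 (background 1.1%). None of these proximal calls was made with both libraries with heart transcripts left out, and no gene of the whole table passed at a single age before term. The values were then 2.42, 1.86 and 2.38 for MYOCD, MYH11 and CNN1 at day 65, 2.42 for MYOCD at day 80 and 1.13 for MYH11 at day 120 (edgeR adjusted p = 0.253, 0.124, 0.297, 0.421 and 0.084). In distal lung MYH11, ACTA2 and CNN1 passed at day 120 (background 3.3%). At day 100 none of the 8 passed in either region (background 0.295% and 3.96%), and the values ran from -0.28 for MYLK to 0.72 for ACTA2 in proximal and from -0.1 for MYLK to 0.84 for MYOCD in distal lung. Over the 10 comparisons of genotype by age and region the 8 genes gave 80 tests, with 1 DEG, 28 at 0.05 and 53 with an unadjusted p under 0.05, where the shares over all genes were 0.206%, 4.39% and 18.9%.

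**Figure D3:**
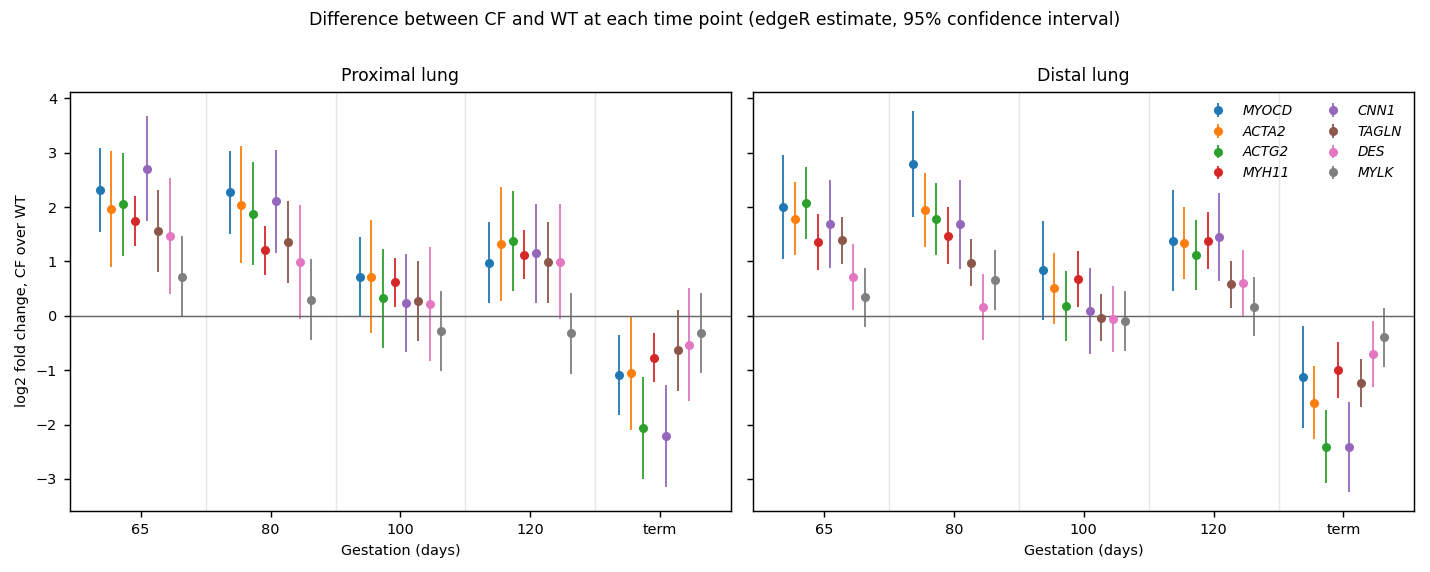
Log2 fold change of CF over WT for each smooth muscle gene at each age in proximal (left) and distal (right) lung, as edgeR estimates with 95% confidence intervals from 2 libraries per condition. Estimates lie above 0 at days 65 and 80, spread around or just above 0 at day 100, and lie below 0 for all 8 genes at term.

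At term the order of the genotypes was the other way round. Both CF libraries lay below both WT libraries for 7 of 8 genes in distal lung and 5 of 8 in proximal lung, where 25.4% and 29.4% of all genes did. ACTG2 in distal lung, at 13.7 and 8.94 CPM in CF and 48.9 and 73.5 CPM in WT, was a DEG with -2.41 ± 0.31 (edgeR adjusted p = 3.16e-04), where 0.682% of genes were such DEGs. CNN1, ACTA2, TAGLN and MYH11 were also lower in CF distal lung, with -2.41 ± 0.39, -1.6 ± 0.31, -1.24 ± 0.2 and -0.99 ± 0.24 (edgeR adjusted p = 0.00128, 0.00431, 0.00146 and 0.0138), which made 5 of 8 at 0.05 against a background of 7.57%. In proximal lung none of the 8 was a DEG (background 0.246%), and CNN1, ACTG2 and MYH11 passed 0.05 with -2.21 ± 0.44, -2.07 ± 0.44 and -0.78 ± 0.21 (edgeR adjusted p = 0.0104, 0.0146 and 0.0443), where 3.49% of genes were lower. Without both libraries with heart transcripts CNN1 and ACTG2 passed, where 1.94% of genes did, and MYH11 at -0.74 did not (edgeR adjusted p = 0.101). MYOCD had -1.09 ± 0.35 in proximal and -1.12 ± 0.44 in distal lung and did not pass (edgeR adjusted p = 0.0827 and 0.0952). The distal count went from 1 to 0 without replicate 2 of CF or of WT at term and to 2 without CF distal term replicate 1 or without either WT distal library of day 65 or either CF distal library of day 120.

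Cell type markers moved beside the smooth muscle genes at term. The 8 smooth muscle genes summed to 413 to 781 and 429 to 645 CPM in CF proximal and distal lung, against 799 to 1213 and 1133 to 1262 CPM in WT. Pericyte genes (8 of 9 matched) summed to 944 to 1089 and 905 to 1123 CPM in CF and 342 to 517 and 356 to 483 CPM in WT, higher in every CF library. Endothelial genes (10 matched) summed to 2554 to 2814 and 2379 to 2635 CPM in CF and 1523 to 2247 and 1565 to 1988 CPM in WT, also higher in every CF library. Striated muscle genes (22 matched) summed to 74.7 to 94.2 and 92.2 to 109 CPM in CF and 22.3 to 26.7 and 26.3 to 31.1 CPM in WT, higher in every CF library too. The genes of that list did not all go the same way: MYBPC3, a cardiac myosin-binding protein, was at 11.7 to 26.1 CPM in the 4 CF libraries and 0.974 to 1.4 CPM in the 4 WT ones, while ACTC1 (0.127 to 0.243 against 0.9753 to 2.09 CPM), ACTA1 (0.0221 to 0.272 against 0.753 to 1.72 CPM) and TNNI3 (0 to 0.0633 against 0.192 to 1.4 CPM) were lower in every CF library. Immune genes (8 of 9) summed to 91.3 to 173 and 119 to 209.7 CPM in CF and 493 to 863 and 386 to 823 CPM in WT, lower in every CF library. Epithelial genes (14 of 14) summed to 10250 to 23600 and 8361 to 28430 CPM in CF and 16810 to 21730 and 14000 to 23110 CPM in WT, and overlapped. The sums of fibroblast genes overlapped in both regions and those of cartilage genes in proximal lung, and in distal lung cartilage genes stood at 39.7 to 46.6 CPM in CF and 37.8 to 39.4 CPM in WT. Mesothelial genes (6 matched) summed to 4.13 to 5.39 and 6.15 to 7.1 CPM in CF and 1.04 to 1.77 and 8.06 to 21.0 CPM in WT. They were higher in every CF proximal and lower in every CF distal library. LRRN4 and UPK3B of that list were lower in CF distal lung, at -10.47 ± 2.25 and -3.21 ± 0.65 (edgeR adjusted p = 0.00804 and 0.00518), where 7.57% of all genes were. None of the pericyte genes was at 0 in any library, and at term none of the immune or epithelial genes was. The part of these other cell types in the results was not tested.

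The difference between the genotypes in the change from day 65 to term was tested as an interaction. It was negative for all 8 genes in both regions. In distal lung ACTG2, at -4.49 ± 0.44, and TAGLN, at -2.63 ± 0.29, were DEGs (edgeR adjusted p = 1.69e-04 and 4.00e-04), where 0.0747% of all genes were. CNN1, ACTA2, MYOCD, MYH11 and DES also passed 0.05 there, with -4.09 ± 0.54, -3.38 ± 0.44, -3.12 ± 0.62, -2.35 ± 0.34 and -1.42 ± 0.4 (edgeR adjusted p from 0.00121 to 0.0496), 7 of 8 in all against a background of 4.2%. In proximal lung none was a DEG, as was 0.00492% of all genes, and CNN1, ACTG2, MYOCD and MYH11 passed 0.05 with -4.92 ± 0.63, -4.12 ± 0.62, -3.4 ± 0.5 and -2.52 ± 0.3 (edgeR adjusted p from 0.00325 to 0.00704), where 0.698% of genes did. Without both libraries with heart transcripts CNN1 and MYH11 passed, where 0.0484% of genes did, and MYOCD at -3.47 and ACTG2 at -4.09 did not (edgeR adjusted p = 0.0541 and 0.0513). TAGLN, at -2.2 ± 0.49, lay just outside the limit of 0.05 with all libraries. MYLK had -1.04 ± 0.49 and -0.74 ± 0.36, the smallest of the 8 in both regions with all libraries. DES in proximal lung had -2.0 ± 0.69, and without both libraries with heart transcripts it was at -0.9 and MYLK at -1.24. The distal count went from 2 to 0 without WT distal day 65 replicate 2 or CF distal term replicate 2, to 1 without WT distal day 65 replicate 1, day 80 replicate 2 or either library of day 100 or without CF distal day 65 replicate 1, and to 4 without CF distal term replicate 1. The proximal count went from 0 to 1 without CF proximal term replicate 1 or either CF proximal library of day 120. Other markers differed in change in distal lung too, where 6.52% of all genes did in either direction. ABCC9, KCNJ8, NDUFA4L2 and RGS5 of the pericyte list were positive, at 1.74, 1.19, 2.16 and 3.84 (edgeR adjusted p from 0.00663 to 0.0479). Negative were BNC1, UPK3B, LRRN4 and WT1 of the mesothelial and CD68, LYZ and MARCO of the immune list (edgeR adjusted p from 0.0142 to 0.0455). The part of these cell types was not tested.

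DES is also a gene of striated muscle, whose transcripts were present in some CF proximal libraries. Of the 24 striated muscle genes 22 were matched, and they summed to 1053 CPM in CF proximal day 65 replicate 1 and 597.1 CPM in CF proximal day 80 replicate 2, to 177.9 CPM in CF proximal day 120 replicate 2 and to at most 109.4 CPM in the other libraries. DES was at 316 and 97.7 CPM in CF proximal lung of day 65 and at 80.8 and 131 CPM at day 80, so the library with heart transcripts was the higher at both ages. Without both libraries the log2 fold change of DES before term in proximal lung was 0.56 in place of 0.92 (edgeR adjusted p = 0.103 in place of 0.0174), and that at day 65 was 0.41 in place of 1.47. The change of DES from day 65 to term in CF proximal lung was -0.14 in place of -1.21. The change of MYH11 from day 65 to term was -2.88 without them, beside -2.78 with all libraries.

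**Figure D4:**
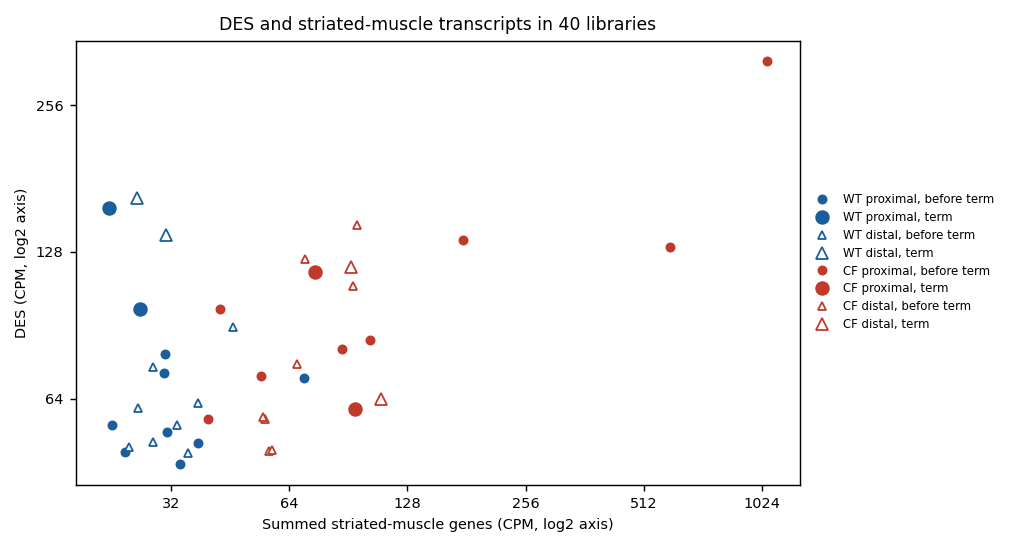
CPM of DES against the summed CPM of 22 striated muscle genes in each of the 40 libraries (both log2 axes), WT in blue and CF in red, circles for proximal and triangles for distal lung, large symbols for term. The 2 CF proximal libraries at the right, at 597.1 and 1053 CPM, are those with heart transcripts.

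Proximal lung holds the larger airways, and the contrast between the regions asks whether smooth muscle genes follow them. None of the 8 genes was called. Averaged over the 5 ages, the log2 fold change of proximal over distal lung ran from -0.3 for TAGLN to 0.16 for MYOCD in WT and from -0.04 for ACTA2 to 0.35 for DES in CF. The 95% confidence intervals of MYH11 were -0.15 to 0.12 in WT and -0.14 to 0.13 in CF, and that of TAGLN in WT was -0.51 to -0.09, an interval not adjusted for the number of genes (edgeR adjusted p = 1). DES in CF, at 0.35 ± 0.11, had the lowest adjusted p of these averages (edgeR adjusted p = 0.685), and it was higher in proximal lung in 7 of 10 CF pairs, which include both libraries with heart transcripts. Over the 10 comparisons by genotype and age, the 8 genes gave 80 tests, none passed 0.05, 7 had an unadjusted p under 0.05, as did 4.97% of those of all genes, and the lowest edgeR adjusted p was 0.361. Of all genes 0.0144% passed 0.05 in the WT average and 0.0385% in the CF average. The difference in the region effect between the genotypes ran from -0.15 for MYOCD to 0.44 for DES and did not pass for any gene (smallest edgeR adjusted p 0.924).

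**Figure D5:**
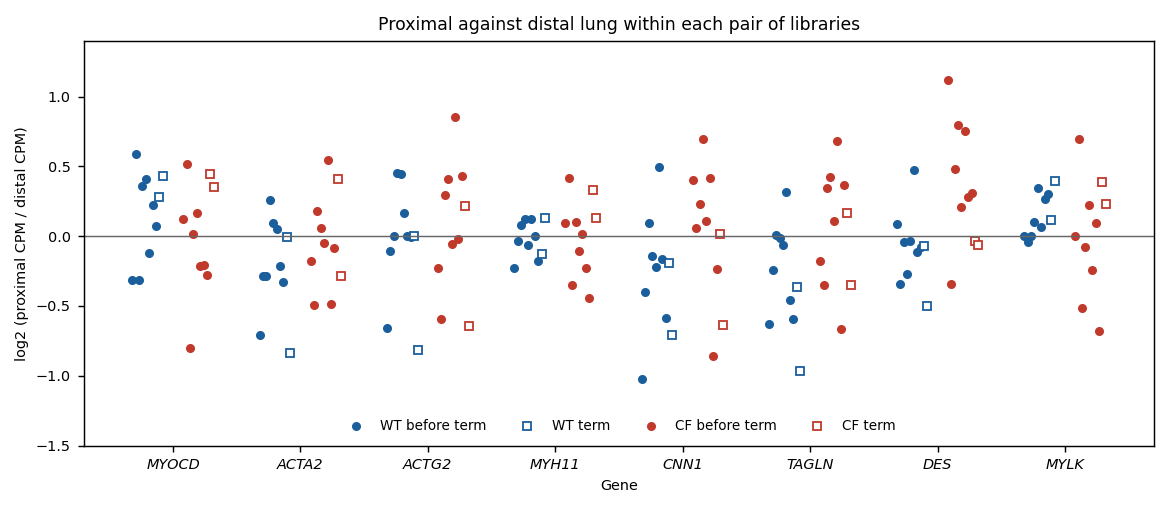
Log2 ratio of proximal over distal CPM for each smooth muscle gene within each of 10 WT (blue) and 10 CF (red) pairs of libraries, with open squares for term. The ratios lie on both sides of 0 for every gene, from -1.03 for CNN1 in WT to 1.12 for DES in CF.

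Other genes of the pathway were taken from set lists. Of 30 other contractile and cytoskeletal genes, 12 rose and 5 fell in WT distal lung from day 65 to term (29 tested), and 13 rose and 5 fell in WT proximal lung, where 21.8% and 23.5% of all genes rose and 21% and 21.5% fell. The largest changes were those of PLN, which restrains the calcium pump, at 2.21 ± 0.25, PDLIM3 at 1.87 ± 0.32 and MYL6 at 1.84 ± 0.2 in proximal, and MYL9, the regulatory myosin light chain, at 2.13 ± 0.23, HSPB6 at 2.04 ± 0.7 and PDLIM3 at 1.98 ± 0.25 in distal lung. CF was higher before term for 6 of 30 and lower for 3 in proximal lung, and for 8 and 3 in distal lung. Of all genes 13.8% were higher and 6.77% lower in proximal and 18.6% and 13.6% in distal lung, and the list's median log2 fold change was 0.15 and 0.06 beside 0.07 and 0.03 for all genes. The proximal counts were 4 higher and 1 lower without both libraries with heart transcripts, and neither TPM2 nor LPP passed (edgeR adjusted p = 0.0917 and 0.0841). PDLIM7 led in both regions with 1.3 ± 0.18 and 0.98 ± 0.12 (edgeR adjusted p = 3.50e-04 and 3.22e-05). Next in size in proximal lung were TPM2, a tropomyosin, higher at 0.99 ± 0.29, and LPP, lower at -0.74 ± 0.19. Without both libraries with heart transcripts TPM2 was at 0.91 and LPP at -0.655. In distal lung KCNMB1, a subunit of the calcium-activated potassium channel of smooth muscle, at 0.78 ± 0.22 and FLNA, a filamin, at 0.68 ± 0.13 came next, both higher. At term 7 of 30 were lower and 3 higher in CF distal lung, where the largest differences were those of KCNMA1 at -2.07 ± 0.58, MYL9 at -1.75 ± 0.35 and PLN, which was higher, at 1.48 ± 0.25, and 1 was lower and 2 higher in CF proximal lung. The latter were 1 and 1 without both libraries with heart transcripts, where SMTN, smoothelin, did not pass (edgeR adjusted p = 0.0615 in place of 0.0331). Of all genes 7.57% were lower and 7.65% higher in distal and 3.49% and 2.6% in proximal lung at term. The list's medians at term were -0.39 in distal and -0.29 in proximal lung, beside 0.0 and -0.03 for all genes. The difference in change was called for 8 of 30 in distal lung, all of them negative, led by PDLIM3 at -2.56 ± 0.46, FHL2 at -2.16 ± 0.37 and MYL9 at -2.04 ± 0.49, and for 0 of 30 in proximal lung, beside 4.2% and 0.698% of all genes with a negative difference past 0.05. An unadjusted p under 0.05 was seen for 8 of 30 in proximal lung and for 15.3% of all genes.

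Among 24 regulators of smooth muscle, MKL1, a partner of SRF like myocardin, was highest against WT in CF lung before term, with 1.71 ± 0.22 in proximal and 1.41 ± 0.18 in distal lung (edgeR adjusted p = 2.25e-04 and 4.27e-05). The newer symbol of MKL1, MRTFA, was a separate entry (LOC101102638) among the 24, so the counts hold both names. That entry was not among those past 0.05 in proximal lung before term. CF was higher for 5 of 24 and lower for 1 in proximal lung, where NOTCH3 at 0.61 ± 0.2 and TGFB1 at 0.48 ± 0.13 came next. Without both libraries with heart transcripts NOTCH3 was at 0.62 and TGFB1 at 0.51 there. In distal lung CF was higher for 9 and lower for 2, and NOTCH3, higher at 0.7 ± 0.15, and the growth factor FGF10, lower at -0.65 ± 0.17, came next. The shares of all genes were the 13.8% higher and 6.77% lower (proximal) and 18.6% higher and 13.6% lower (distal) given above. Without both libraries with heart transcripts 3 regulators were higher and 0 lower in proximal lung, MKL1 at 1.71 among them (edgeR adjusted p = 0.00233), and NOTCH3 and TGFB1 did not pass (edgeR adjusted p = 0.11 and 0.0544). SRF itself was lower in CF distal lung at term, at -2.04 ± 0.39 (edgeR adjusted p = 0.00381), beside TGFBR2, lower at -1.6 ± 0.5, and FGF10, higher at 1.64 ± 0.35. In all 3 regulators were higher and 2 lower there, and 2 were higher and none lower in proximal lung, where 7.65% and 2.6% of all genes were higher and 7.57% and 3.49% lower. In WT lung from day 65 to term 7 regulators rose and 5 fell in proximal lung, with the largest changes in WNT2, which fell, at -2.49 ± 0.24, KLF4, which rose, at 2.06 ± 0.34, and TGFB3, which fell, at -2.0 ± 0.19, and 7 rose and 6 fell in distal lung, with the largest in WNT2 and FGF10, which fell, at -2.62 ± 0.29 and -2.01 ± 0.18, and KLF4, which rose, at 1.86 ± 0.23. In these comparisons 23.5% and 21.8% of all genes rose and 21.5% and 21% fell. The difference in change was called for FGF10 at 2.71 ± 0.49, MKL1 at -2.1 ± 0.5, SRF at -1.99 ± 0.54 and HEYL, named after its value was seen, at -1.29 ± 0.35 in distal lung and for none in proximal lung, where 6.52% and 1.05% of all genes were called.

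Of 20 genes that set contraction through calcium, kinases and phosphatases, 18 were matched. RYR2, a calcium release channel, was higher in CF before term in both regions, with 1.07 ± 0.21 and 1.03 ± 0.17 (edgeR adjusted p = 0.00356 and 4.46e-04). It was the 1 gene of the 18 that was higher in proximal lung. Of all genes 13.8% were higher in proximal and 18.6% in distal lung. PPP1CB was lower in distal lung at -0.25 ± 0.09, where 13.6% of all genes were lower. Without both libraries with heart transcripts RYR2, which heart muscle also expresses, had 0.88 in proximal lung (edgeR adjusted p = 0.0293). At term 1 was higher and 1 lower in CF proximal and 1 higher and 3 lower in CF distal lung. PPP1R14A, which inhibits myosin phosphatase, was the higher one in both, with 2.51 ± 0.66 and 1.97 ± 0.36 (edgeR adjusted p = 0.0374 and 0.00263), and it did not pass in proximal lung without both libraries with heart transcripts (edgeR adjusted p = 0.0526). Of 16 receptors of smooth muscle, 15 were tested. CHRM3, the muscarinic receptor that mediates airway constriction, was lower in CF at term in both regions, at -1.73 ± 0.32 and -1.61 ± 0.28 (edgeR adjusted p = 0.00796 and 0.00228), and AVPR1A, a vasopressin receptor, was higher, at 3.54 ± 0.73 and 2.55 ± 0.6 (edgeR adjusted p = 0.0131 and 0.0116). In all 3 receptors were higher and 1 lower in CF proximal and 3 higher and 2 lower in CF distal lung at term, and in proximal lung 2 and 1 without both libraries with heart transcripts, where EDNRA, an endothelin receptor, did not pass (edgeR adjusted p = 0.0571 in place of 0.029). The shares of all genes at term were 2.6% higher and 3.49% lower in proximal and 7.65% higher and 7.57% lower in distal lung. In WT lung HRH1, a histamine receptor that mediates airway constriction, rose from day 65 to term by 2.8 ± 0.43 in proximal and 3.08 ± 0.55 in distal lung (edgeR adjusted p = 7.28e-04 and 0.00215). Of all genes 23.5% and 21.8% rose there.

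The 8 genes followed each other unevenly over the 40 libraries. Among their 28 pairs Pearson's r on log2 CPM ran from -0.14 (DES and MYLK) to 0.95 (MYOCD and MYH11) with a median of 0.58. ACTA2 and CNN1 had an r of 0.91 and ACTA2 and ACTG2 of 0.89. MYH11 and TAGLN had an r of 0.23. The median over pairs was 0.79 in the 16 WT libraries before term and 0.27 in the 16 CF libraries before term. Outside the list, the genes whose log2 CPM lay closest to the mean of the 8 standardised profiles were FGF18 (Pearson r = 0.89 over 40 libraries), ECM1 (0.84), SSC5D (0.84), FHL3 (0.83), FLNA (0.82), KCNMB1 (0.81), PDLIM3 (0.8), ST5 (0.8), ADCY6 (0.8) and ARHGEF10 (0.8). Closest to MYOCD alone were NANOS3 (0.86), MORC2 (0.86), EIF4ENIF1 (0.86), KCND3 (0.85) and RAI1 (0.85). These values are descriptions over libraries that share their groups, their depth and their normalization.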

How the data were processed

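RNA was extracted from lung pieces and made into 40 libraries, 2 per condition, primed with oligo dT and so drawn from polyadenylated transcripts. Reads were mapped by the authors against Oar_v4.0, and raw counts per gene were deposited. The submitters' processing notes name STAR 2.6 and featureCounts 1.6.3 of Subread, and the study's methods name a different STAR version. A further deposited table held the CF counts again and was not used. Of counts from 1 to 20, 69.2% to 85.8% per library were even, as counting both mates of a pair gives, and whether mates were counted separately is not given in the sources used here. How multi-mapping reads were treated and which strand setting was used are not given in the sources used here. Groups were taken from the sample labels, and replicates were numbered as the titles give them. The members and gene lists were chosen with earlier results of these data known.

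Counts were tested as deposited with edgeR 4.0.16 (R 4.3.3) by the quasi-likelihood F test after TMM normalization, with filterByExpr (minimum count 10, minimum total 15) and Benjamini-Hochberg adjustment over all genes tested. Of all genes, 20779 passed the filter over the 40 libraries, and 8 of the 8 matched members did. Time was tested within the 10 libraries of a genotype and region. Genotype was tested in the 20 libraries of a region with 1 mean per genotype and time point. Region was tested in all 40 libraries with a block for each genotype, age and replicate number, taken as the animal. The WT day 100 libraries, which come under a single animal name in each region, were thus treated as different animals. Differences between replicates correlated by -0.094 to 0.626 between the 2 regions of the same animals (6 of 10 pairs over 0.1). A DEG needed an adjusted p no higher than 0.001 and a change of 0.58 or more either way on the log2 scale, as in the study's rule, and 0.05 was the second limit. Named genes were all members and, in each other list, the 3 with the largest change among those past 0.05. The genes most like the members were ranked by Pearson's r on log2 CPM (prior count 2).

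Depth differed with genotype before term, so counts were also thinned to equal depth. Alternatives were DESeq2 1.42.0, RLE normalization, no filter, the limit of 0.05, thinned counts, the WT day 100 libraries summed, a replicate block and each library left out. Leaving out the libraries with cardiac transcripts was chosen after seeing the data. The fits of region without 1 library kept the dispersion trend of all libraries.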

Additional observations from a re-analysis of the deposited data

Results flagged for a closer look

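The change from day 65 to term differed between the genotypes in distal lung for TAGLN and ACTG2 by a test of the difference itself. For TAGLN the CF change minus the WT change was -2.625 on the log2 scale (edgeR quasi-likelihood, Benjamini-Hochberg adjusted p = 4.00e-04), with 2.1 in WT and -0.49 in CF. For ACTG2 it was -4.486 (edgeR adjusted p = 1.69e-04), with 1.46 in WT and -2.98 in CF. No group was large enough for a test of single libraries that stand apart.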

How the results depend on the processing

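Counts are of the 8 genes that were DEGs, with all libraries first. With DESeq2 the count went from 3 to 5 (WT distal time), 0 to 3 (CF proximal time), 0 to 2 and 1 to 4 (genotype at term, proximal and distal), 0 to 4 and 2 to 6 (difference in change, proximal and distal), 1 to 30 of 128 (consecutive time points, 20 higher and 10 lower) and 1 to 26 of 80 (genotype at each time point, 20 higher and 6 lower). With the limit of 0.05 the counts were 5 and 5 (WT proximal and distal time), 4 and 5 (CF proximal and distal time), 3 and 5 (genotype at term), 4 and 7 (difference in change), 30 (consecutive, 19 higher and 11 lower) and 28 (genotype at each time point, 20 higher and 8 lower). Without the filter on low counts they were 1 (CF proximal time), 3 (genotype at term, distal), 4 (difference in change, distal), 4 (consecutive) and 3 (genotype at each time point). With the WT day 100 libraries summed they were 2 (before term, proximal), 1 (difference in change, distal) and 0 (consecutive). The replicate block gave 3 (before term, proximal), 3 (genotype at term, distal), 5 (difference in change, distal), 0 (consecutive) and 4 (genotype at each time point, 1 higher and 3 lower). Same-numbered libraries of the groups compared came from different animals and correlated by -0.415 to 0.616 (13 of 50 pairs over 0.1), so the numbers do not pair them. Without the cardiac libraries the count before term in proximal lung was 1. RLE normalization and thinned counts left every count within 1.5 times, and the region counts were 0 under every alternative run. The cause of these changes was not tested.

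With 1 library left out the counts ranged from 0 to 4 (WT proximal time), 2 to 3 (WT distal time), 0 to 2 (CF proximal time), 0 to 3 (CF distal time), 2 to 6 and 5 to 6 (before term, proximal and distal), 0 to 0 and 0 to 2 (genotype at term), 0 to 1 and 0 to 4 (difference in change), 0 to 3 (consecutive) and 0 to 2 (genotype at each time point). Where this left a condition with 1 library, that library was taken to vary like the others. Of 3840 single-gene values with a library left out, 3638 kept direction and call and 82 changed sign. Among the values given above, with 1 library left out the sign changed for DES between day 120 and term (-0.405 to 0.61 in CF distal and -0.801 to 0.28 in CF proximal lung) and between days 80 and 100 in WT proximal lung (-0.094 to 0.436), for MYLK before term in proximal lung (-0.066 to 0.211) and from day 65 to term in WT distal lung (-0.405 to 0.425), and for MYOCD from day 65 to term in WT lung (-0.7 to 0.76 distal, -0.221 to 0.58 proximal). Of 272 single-gene values, 2 changed sign without the filter on low counts, 2 with the replicate block and 1 with thinned counts, and 5 of 96 did without the cardiac libraries. Precision was limited by having 2 libraries per condition.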

Other observations

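Pericyte genes, which mark the contractile cells of the capillary wall, were higher in CF distal lung at term for 5 of 8 and lower for 0, with a median log2 fold change of 1.06 beside 0 for all genes, where 7.65% of all genes were higher. NDUFA4L2 was at 3.24 ± 0.31 and RGS5, a regulator of G protein signalling, at 2.99 ± 0.78 (edgeR adjusted p = 4.69e-05 and 0.0201). In CF proximal lung 1 of 8 was higher at term and 0 lower, with a median of 0.91, where 2.6% of all genes were higher. FGF18, a fibroblast growth factor of the lung mesenchyme, was higher in CF before term at 1.98 ± 0.33 in proximal and 1.62 ± 0.22 in distal lung, and lower in CF distal lung at term at -2.44 ± 0.45 (edgeR adjusted p = 0.00115, 8.48e-05 and 0.00299). Of the 12 fibroblast genes 2 were higher and 1, TCF21, lower in CF proximal lung before term, where 13.8% and 6.77% of all genes were. At term 3, TCF21 among them, were higher and 1 lower in CF proximal lung, where 2.6% and 3.49% of all genes were. FGF18 was not among those. These genes were named after their values were seen, and the cause was not tested.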
